A study of Ambystoma mexicanum with 12 samples.

Results

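Proteoglycans and matrix glycoproteins of the regenerating axolotl (Ambystoma mexicanum) forelimb are described here through 6 genes, ACAN, BCAN, PTPRZ1, DCN, MATN4 and TNN. They are 6 of the 8639 genes named on the array, and all their probe sets were taken, 10 of the 20035 tested. ACAN, BCAN, PTPRZ1 and TNN had 2 probe sets each, and DCN and MATN4 had 1. The 6 genes were chosen from the differences between drug-treated and vehicle-treated blastemas on these same arrays, so their differences from vehicle are given as descriptions, without p-values. The comparison of the 2 drugs with each other was not itself used in that choice and is given with its test. It is the difference of the 2 contrasts with vehicle, however, so its p-values are not independent of the choice.

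A blastema is the mound of cells that forms on an amputated limb and rebuilds the missing part. Forelimbs of juvenile axolotls, 8.8 cm long on average, were amputated through the lower arm, and the animals were housed singly with a drug or its vehicle between days 7 and 14. Blastemas were cut out on day 14 with little stump tissue. The groups were retinoic acid (RA, the natural ligand of retinoic acid receptors; such limbs later duplicate proximal structures), LE135 (by general knowledge an antagonist of retinoic acid receptor beta; such limbs end truncated) and DMSO (the vehicle; such limbs regenerate normally). Each group held 4 samples, and each sample pooled single limbs of 4 animals, so a value is an average over 4 animals and over all cells of the blastema, wound epidermis included. Doses are not given in the sources used here. Values are log2 expression levels after RMA, the standard normalization of Affymetrix arrays, and a difference of 1 is a doubling.

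Aggrecan (ACAN) and brevican (BCAN) belong to the lectican family, large core proteins that bind hyaluronan at one end and carry chondroitin sulfate chains. Aggrecan is the main proteoglycan of cartilage and brevican is best known from brain matrix. PTPRZ1 is a receptor tyrosine phosphatase that itself carries chondroitin sulfate and binds pleiotrophin (PTN) and midkine (MDK). Decorin (DCN) is a small leucine-rich proteoglycan that binds collagen fibrils, matrilin-4 (MATN4) is an adaptor protein of extracellular filaments, and TNN (tenascin-N, also called tenascin-W) is a glycoprotein of the tenascin family. A blastema lays down a transitional matrix rich in hyaluronan, tenascin and fibronectin, which is later replaced by cartilage and mature connective tissue.

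A pair of samples, LE135 4 and DMSO 4, were least like their own group, with mean correlations across probe sets of 0.986 (LE135 4) and 0.978 (DMSO 4) with the other samples of their group, where the other 10 samples had 0.989 to 0.995. Limb connective tissue and epidermal markers both included genes far above the lowest array values (3.05 to 3.15). COL1A1, the main collagen of connective tissue, averaged 13.95 and the keratin KRT8 averaged 14.46 in DMSO. The dimmest measured marker of each list, PRRX1 for connective tissue and TP63 for epidermis, averaged 5.62 and 8.96 in DMSO. Of 11 cartilage markers 9 were measured, and their mean centred level ran from -0.49 to -0.03 in RA, from -0.35 to 0.15 in LE135 and from -0.35 to 1.05 in DMSO, where DMSO 4 was the highest sample. Their summed level was 58.9 to 63.1 in RA, 60.2 to 64.7 in LE135 and 60.1 to 72.8 in DMSO, and none of the 9 passed in limma in any comparison. Skeletal muscle markers, 9 of 14 measured, varied widely within groups. Their mean centred level was -1.03 to 1.10 in RA, -0.39 to 0.55 in LE135 and -1.59 to 0.43 in DMSO. DMSO 4 was the lowest sample. In RA 1 of these 9 rose, where 2.74% of all named genes passed. The share of stump tissue in the samples was not tested.

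Of the 10 probe sets, 5 passed the threshold in RA against DMSO (adjusted p under 0.05 in limma, over all probe sets), where 2.64% of all probe sets did. The brighter probe sets of ACAN and BCAN and the probe set of DCN rose (3, background 1.62%), and MATN4 and the brighter probe set of TNN fell (2, background 1.01%). In LE135 against DMSO 3 passed, with a background of 2.09%: the brighter probe sets of ACAN and BCAN rose (background 0.893%) and the brighter one of PTPRZ1 fell (background 1.19%). The groups did not overlap in 7 of 10 for RA and DMSO (11.3% of all probe sets) and in 4 of 10 for LE135 and DMSO (7.53%). These contrasts chose the genes, so nothing is read from the shares, and both contrasts share the DMSO samples. In RA against LE135 none of the 10 passed, where 0.02% of all probe sets did. DCN, MATN4 and the brighter TNN probe set had an unadjusted p under 0.05 in limma, 3 of 10, where 7.67% of all probe sets had one. RA and LE135 did not overlap in 4 of 10, with a background of 6.93%. This comparison is the difference of the 2 contrasts that chose the genes, so nothing is read from these shares either. The words brighter and dimmer only tell 2 probe sets of a gene apart by their mean signal and say nothing of how much of each transcript was present.

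**Figure D1:**
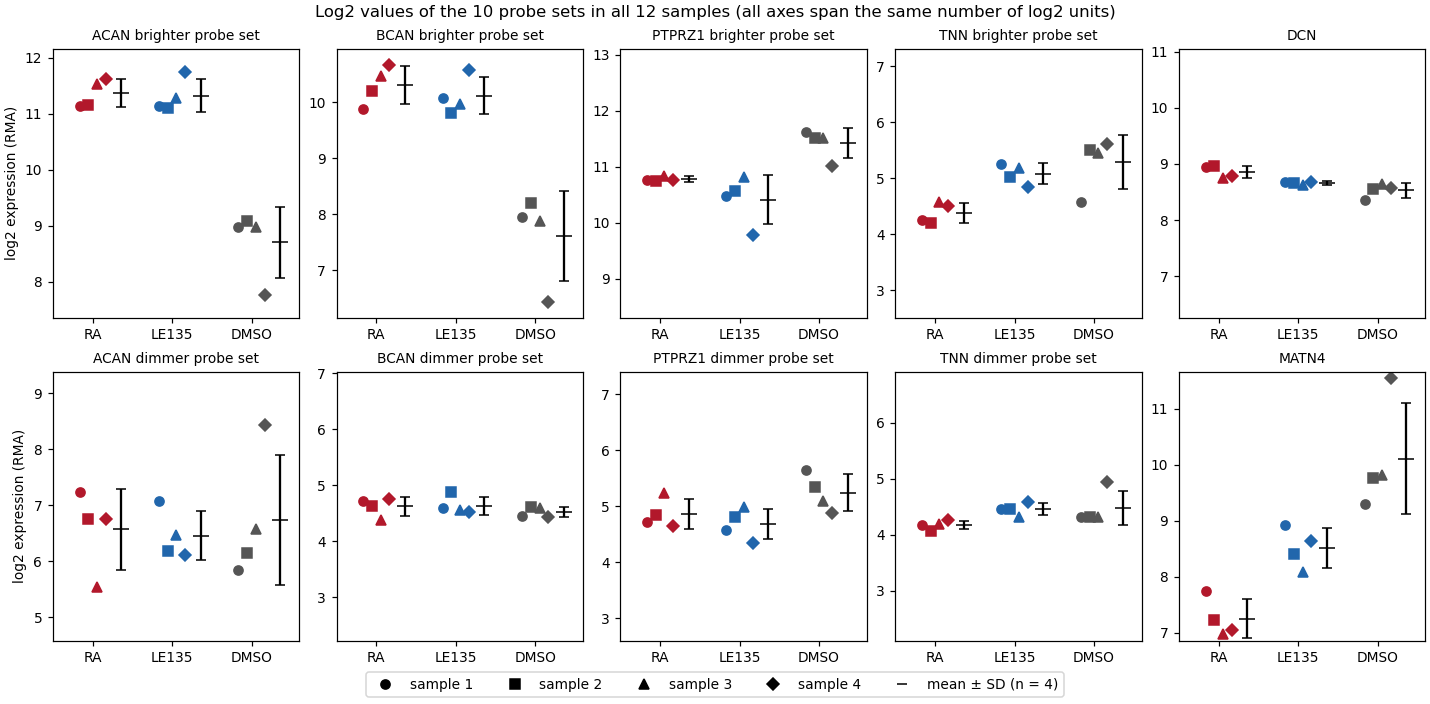
Log2 values (vertical axes, each spanning the same number of log2 units) of the 10 probe sets in 4 RA, 4 LE135 and 4 DMSO samples; bars are means with SD and marker shapes give the sample number. The brighter ACAN and BCAN probe sets are higher in every drug sample than in any DMSO sample, while their dimmer probe sets overlap across groups.

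The brighter ACAN probe set (axo13259-r_at) stood at 11.13, 11.16, 11.53 and 11.61 in RA, at 11.14, 11.10, 11.27 and 11.75 in LE135, and at 8.98, 9.08, 8.98 and 7.76 in DMSO. Every drug sample lay above every DMSO sample, and the 2 drug groups overlapped almost fully. The log2 difference was 2.66 (SE 0.27) in RA and 2.61 (SE 0.27) in LE135, about 6.30-fold and 6.12-fold above DMSO. In whole blastemas, more cells of a type and more RNA per cell cannot be told apart. Without DMSO 4, the lowest sample, the differences were 2.34 and 2.30.

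The brighter BCAN probe set (axo18217-r_at) followed the same course, at 9.87, 10.20, 10.46 and 10.67 in RA, 10.07, 9.81, 9.97 and 10.58 in LE135, and 7.94, 8.20, 7.88 and 6.43 in DMSO. The drug and DMSO samples again did not overlap. The log2 difference was 2.68 (SE 0.34) in RA and 2.49 (SE 0.34) in LE135, about 6.43-fold and 5.63-fold above DMSO. RA against LE135 gave 0.19 (95% interval -0.56 to 0.94, adjusted p = 0.932 in limma), and for the ACAN probe set 0.04 (95% interval -0.56 to 0.64, adjusted p = 0.983). Sample by sample the 2 probe sets kept step: the ACAN value exceeded the BCAN value by 0.88 to 1.33 in all 12 samples (SD 0.15), although each ranged over 3.99 and 4.23 log2 units. Their r over the 12 samples was 0.994 and 0.98 after the group means were taken out. DMSO 4 was lowest and sample 4 of each drug was highest in its group in both, while LE135 1 and LE135 3 stood in opposite order. Whether they detect separate transcripts was not tested, since probe sequences were not used here.

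The second probe sets of these genes behaved differently. The dimmer ACAN probe set (axo13260-r_at) stood at 7.24, 6.75, 5.54 and 6.75 in RA, 7.07, 6.19, 6.47 and 6.12 in LE135, and 5.84, 6.14, 6.57 and 8.43 in DMSO. The groups overlapped, DMSO 4 was the highest of all 12 samples, and the differences were -0.17 in RA and -0.28 in LE135 (SE 0.52 each). Without DMSO 4 both turned positive, 0.39 in RA and 0.28 in LE135, still without a call. The gap between the probe sets' differences was 2.83 in RA and 2.89 in LE135. It was the widest of all 1740 genes with at least 2 probe sets, where the median gap was 0.12. ACAN was chosen from its differences from DMSO, which favours a wide gap, so nothing is read from this rank. The dimmer BCAN probe set (axo18218-r_at) ranged over 0.50 log2 units across all samples, with group means of 4.63 in RA, 4.64 in LE135 and 4.52 in DMSO. It was dimmer than about 3 in 4 probe sets of the arrays (brightness rank 25.4%), so a change in it could have gone unseen. Most calls of a gene's brightest probe set were not shared by its next brightest. Among the 1740 genes, the brightest probe set passed in 57 under RA, and the next brightest of the same gene also passed in 8. That is 14%, where 2.64% of all probe sets passed in RA.

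**Figure D2:**
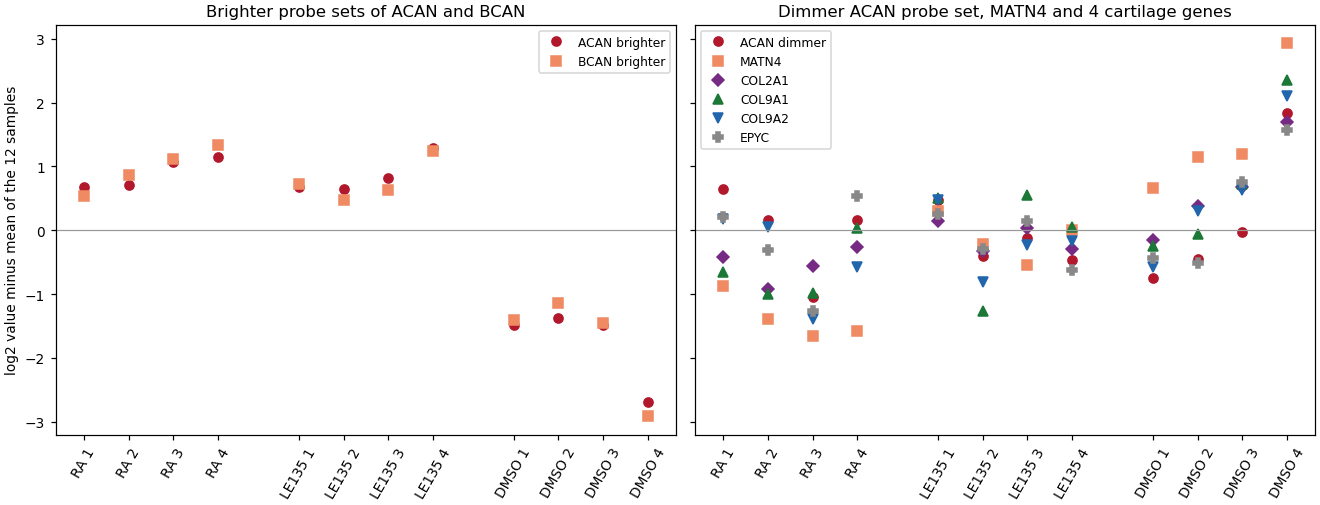
Log2 value minus the mean of the 12 samples (vertical axis) for each sample (horizontal axis, RA, LE135, DMSO), with the brighter ACAN and BCAN probe sets on the left and the dimmer ACAN probe set, MATN4 and 4 cartilage genes on the right. In DMSO 4 the left pair is at its lowest and all 6 on the right are at their highest.

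Of the 9 measured cartilage markers, COL2A1, COL9A1, COL9A2, HAPLN1 and EPYC had their highest value of all 12 samples in DMSO 4, as the dimmer ACAN probe set did. The other 4 did not: SOX9 was at 7.23 in DMSO 4 and at 7.63 in LE135 4, COL11A1, a fibril collagen of cartilage, was at 10.80 in DMSO 4 and at 10.80 to 11.11 in the other DMSO samples, and MATN1 and MATN3 were at 4.05 and 4.06. COL2A1, the main collagen of cartilage, was at 11.89 in DMSO 4, against 10.05 to 10.88 in the other DMSO samples. COL9A1, a collagen that decorates cartilage fibrils, was at 11.10 there and at 8.49 to 9.46 in the other DMSO samples, and EPYC, a small proteoglycan of growing cartilage, was at 7.97 there and at 5.89 to 7.15. Across groups COL2A1 averaged 9.66 ± 0.27 in RA, 10.09 ± 0.23 in LE135 and 10.85 ± 0.77 in DMSO (SD, n = 4 each). All its RA samples lay below all DMSO samples. The differences from DMSO, -1.19 in RA and -0.75 in LE135, did not pass (adjusted p = 0.0773 and 0.315). In RA a call was made with weighted arrays, without DMSO 1, and without DMSO 4 and LE135 4 together. A second, dimmer COL2A1 probe set differed by -0.15 in RA and 0.03 in LE135, without a call. SOX9, the transcription factor that switches on aggrecan in chondrocytes, differed by 0.18 in RA (adjusted p = 0.904) and 0.72 in LE135 (adjusted p = 0.494).

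MATN4 (axo09539-f_at) had the widest difference of the 10 probe sets in RA. It stood at 7.75, 7.23, 6.97 and 7.05 in RA, at 8.93, 8.40, 8.08 and 8.63 in LE135, and at 9.29, 9.77, 9.81 and 11.55 in DMSO. The 3 groups did not overlap, with RA lowest and DMSO highest. The log2 difference from DMSO was -2.86 (SE 0.41) in RA, where MATN4 fell, and -1.60 (SE 0.41) in LE135, which did not pass. Its highest value was in DMSO 4, the sample with the most cartilage marker signal, and the part of cartilage in the result was not tested. Without DMSO 4 the difference was -2.38 in RA, still past the threshold, and -1.12 in LE135, which then passed, as it also did with weighted arrays and without DMSO 4 and LE135 4 together.

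Between the drugs MATN4 was lower in RA by 1.26 (95% interval -2.15 to -0.37), which did not pass in limma (adjusted p = 0.435, and 0.0212 to 0.745 over the alternatives). The low end of that range came from weighting the arrays by their quality, where the difference was -1.41. The other matrilins measured, which also form filament adaptors, were MATN1, MATN2 and MATN3. MATN2 differed by 0.13 in RA and -0.02 in LE135, and MATN1 and MATN3 had group means of 3.91 to 4.04, near the lowest array values.

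The brighter TNN probe set (axo18296-f_at) stood at 4.26, 4.20, 4.57 and 4.50 in RA, at 5.26, 5.02, 5.19 and 4.84 in LE135, and at 4.57, 5.51, 5.45 and 5.62 in DMSO. RA was below LE135 in every sample, and DMSO 1, at 4.57, equalled the highest RA sample to 2 decimals. The difference from DMSO was -0.90 (SE 0.20) in RA, where TNN fell, and -0.21 (SE 0.20) in LE135. All 12 values were low for these arrays (brightness rank 30.6%), so the size of the fall is uncertain. The call in RA held in 2 of 12 omissions of a single sample, those of DMSO 1 and LE135 4, and was also lost with only the 8 compared samples, the sample number as a block and unmoderated variances. RA against LE135 gave -0.69 (95% interval -1.14 to -0.25, adjusted p = 0.377). The dimmer probe set (axo18297-f_at) had the same order of means, 4.18 in RA, 4.46 in LE135 and 4.48 in DMSO, and differed by -0.30 in RA and -0.03 in LE135. All its RA samples (4.08 to 4.26) lay below all DMSO samples (4.32 to 4.95), without a call.

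Its relative tenascin-C (TNC), a marker of the early blastema matrix, averaged 13.84 ± 0.05 in RA, 13.45 ± 0.20 in LE135 and 13.32 ± 0.53 in DMSO. The differences from DMSO, 0.52 in RA and 0.13 in LE135, did not pass (adjusted p = 0.265 and 0.872).

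DCN (axo00641-r_at) stood at 8.94, 8.96, 8.75 and 8.79 in RA, at 8.67, 8.66, 8.62 and 8.68 in LE135, and at 8.35, 8.56, 8.65 and 8.58 in DMSO. All RA samples lay above all samples of both other groups, and LE135 overlapped DMSO. The rise in RA was small, 0.32 (SE 0.07), about 1.25-fold, and the difference in LE135 was 0.12 (SE 0.07). The call in RA held in 1 of 12 omissions of a single sample, that of LE135 4, and was also lost with only the 8 compared samples, the sample number as a block, a trended prior, arrays centred on their medians and unmoderated variances. RA against LE135 gave 0.20 (95% interval 0.04 to 0.37, adjusted p = 0.534). The 8 of 12 connective tissue markers that were measured had mean centred levels of -0.05 to 0.24 in RA, -0.07 to 0.10 in LE135 and -0.30 to 0.09 in DMSO. MSX2 fell in RA, averaging 6.53 against 7.28 in DMSO, 1 of the 8, where 2.74% of all named genes passed. Every other measured marker averaged higher in RA than in DMSO. PRRX1 averaged 6.14 in RA and 5.62 in DMSO, COL1A1 14.39 and 13.95, COL1A2 13.33 and 12.91, and COL3A1 14.28 and 14.12. COL5A1 averaged 12.21 and 11.71, PDGFRA 7.11 and 6.82, and LUM 13.28 and 13.08. None of the 8 rose with a call, and their part in the DCN rise was not tested.

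In the RefSeq gene order of the axolotl (assembly UKY_AmexF1_1), looked at after the values were seen, DCN lies beside other small leucine-rich proteoglycans, LUM (lumican), KERA (keratocan) and EPYC (epiphycan). KERA, which binds collagen in cornea and other connective tissue, rose in RA, at 9.64, 9.57, 9.19 and 9.29 against 8.65, 8.89, 8.90 and 9.16 in DMSO, a difference of 0.52 (SE 0.12, adjusted p = 0.0460 in limma, and 0.00835 to 0.138 over the alternatives). Its call held in 3 of 12 single omissions. In LE135 it differed by 0.04 (adjusted p = 0.948). LUM, a regulator of fibril width, differed by 0.19 in RA (adjusted p = 0.403) and 0.01 in LE135. EPYC differed by -0.55 and -0.47, both without a call. BCAN lies 2 protein-coding genes from RHBG, an ammonium transporter, whose levels were 8.67, 8.87, 8.64 and 8.50 in RA, 8.03, 8.10, 8.53 and 8.38 in LE135, and 7.28, 7.03, 7.28 and 6.16 in DMSO. RHBG rose in both drugs, by 1.73 and 1.32, and was lowest in DMSO 4, as BCAN was. ACAN lies beside HAPLN3, a link protein that ties lecticans to hyaluronan, which differed by -0.03 in RA and -0.16 in LE135. Of 25 measured genes within 4 protein-coding genes of the 6, RHBG, KERA and FAM83C passed in RA, 3 of 25, where 2.74% of all named genes did, and RHBG and FAM83C in LE135, 2 of 25, where 2.44% did.

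**Figure D3:**
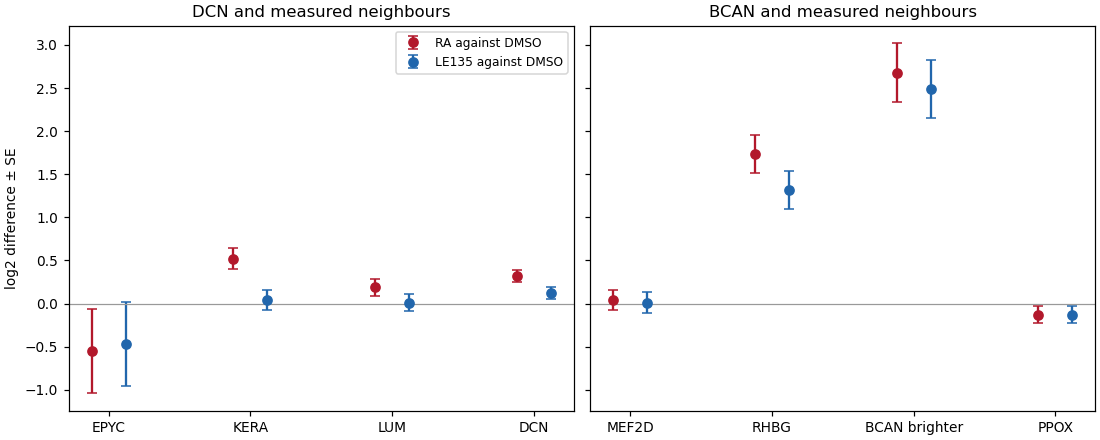
Log2 difference from DMSO with SE (vertical axis) in RA and in LE135 for DCN, BCAN and some of their measured neighbours. Genes run left to right in the RefSeq gene order. Other measured neighbours are not drawn, among them CSRP2 near DCN. CSRP2 differed by 0.02 in RA and -1.14 in LE135, without a call (adjusted p = 0.0691 in LE135 in limma). KERA and DCN are above 0 in RA, and RHBG and BCAN are above 0 in both drugs.

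The brighter PTPRZ1 probe set (axo08594-f_at) stood at 10.77, 10.74, 10.84 and 10.76 in RA, at 10.48, 10.57, 10.81 and 9.78 in LE135, and at 11.63, 11.51, 11.52 and 11.02 in DMSO. All drug samples lay below all DMSO samples, and RA was the tightest group. PTPRZ1 fell in LE135, by -1.01 (SE 0.19), to about 0.496 of the DMSO level. In RA the difference was -0.64 (SE 0.19), which did not pass. The call in LE135 was lost in 4 of 12 omissions, those of DMSO 1, DMSO 2, DMSO 3 and LE135 1, and also with only the 8 compared samples and with unmoderated variances. In RA a call was made without LE135 4, with weighted arrays, and without DMSO 4 and LE135 4 together, where the difference was -0.78. RA against LE135 gave 0.37 (95% interval -0.06 to 0.80, adjusted p = 0.729).

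The dimmer PTPRZ1 probe set (axo08595-f_at) ran in the same direction, at 4.71, 4.85, 5.23 and 4.65 in RA, 4.57, 4.80, 4.98 and 4.35 in LE135, and 5.65, 5.34, 5.09 and 4.88 in DMSO. Its differences were -0.38 in RA and -0.56 in LE135, with overlap between groups in both. Its values were low for these arrays (brightness rank 30.7%), so the size of these differences is uncertain.

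Of 12 epidermal markers 9 were measured, with mean centred levels of -0.05 to 0.04 in RA, -0.38 to 0.02 in LE135 and 0.10 to 0.25 in DMSO. TP63 and JUP fell in LE135, 2 of the 9, where 2.44% of all named genes passed in that comparison. PKP1 averaged 9.04 in LE135 and 9.76 in DMSO, DSP 12.82 and 13.22, and KRT8 14.26 and 14.46. KRT18 averaged 12.67 and 12.87, EPCAM 12.96 and 13.11, and CDH1 12.24 and 12.28. Only GRHL3 averaged higher in LE135, 10.88 against 10.70 in DMSO. Apart from TP63 and JUP, no marker had a call in LE135. LE135 4 was the lowest sample in both the marker level and PTPRZ1, and the part of epidermis in the PTPRZ1 result was not tested. Of 17 glial and nerve markers 9 were measured, at -0.15 to 0.25 in RA, -0.17 to 0.05 in LE135 and -0.30 to 0.13 in DMSO. None of these 9 passed in limma.

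The ligand MDK, a heparin-binding growth factor, stood at 7.60, 7.85, 7.18 and 7.16 in RA and at 7.25, 7.26, 6.98 and 7.61 in LE135, against 6.61, 6.88, 6.76 and 6.79 in DMSO. Both drug groups lay above DMSO without overlap, but the differences of 0.68 and 0.51 did not pass (adjusted p = 0.0531 and 0.163). For MDK in RA a call was made with weighted arrays, with arrays centred on their medians, and without probe sets under the lower quartile of mean level. It was also made without LE135 4, alone or together with DMSO 4. The other ligand, PTN, differed by -0.04 and -0.13, and PTPRG, the phosphatase most like PTPRZ1, by 0.76 and 0.37, all without a call. PTN was low for these arrays, with group means of 4.64 to 4.78. NRCAM, a neuronal adhesion molecule that binds PTPRZ1, fell in LE135, at 4.57, 4.34, 4.24 and 4.43 against 5.15, 5.20, 5.10 and 4.81 in DMSO, a difference of -0.67 (SE 0.09, adjusted p = 0.00481). Of its 4 probe sets this was the brightest, and the others differed by -0.05 to 0.21 without a call. Even the brightest was low for these arrays, with means of 4.39 in LE135 and 5.06 in DMSO, so the size of the fall is uncertain.

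**Figure D4:**
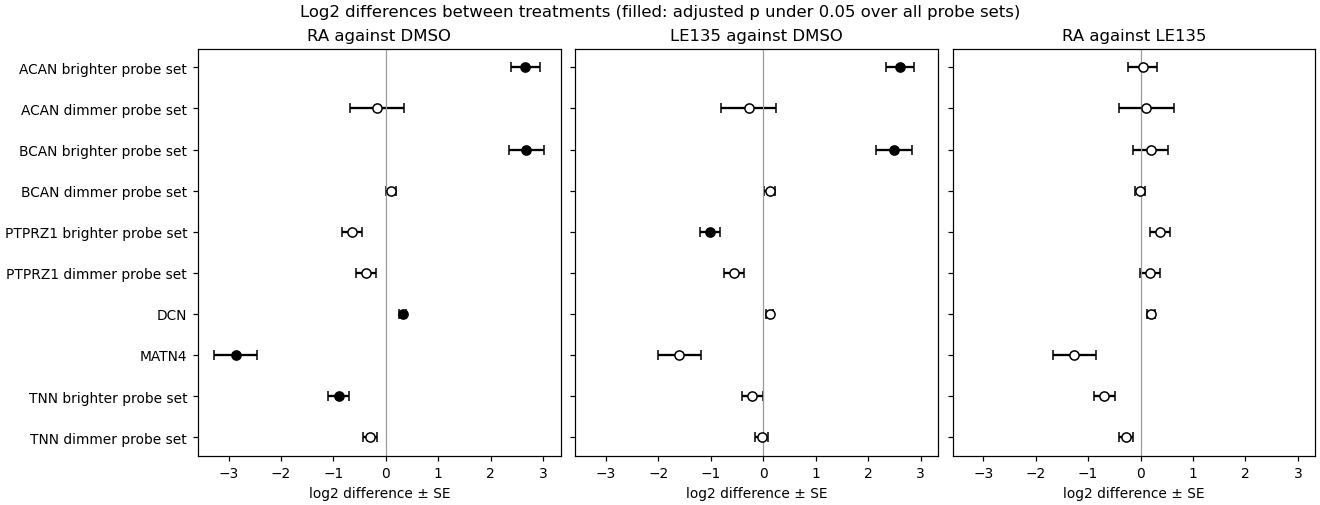
Log2 difference with SE (horizontal axes) of the 10 probe sets in RA against DMSO, LE135 against DMSO and RA against LE135; filled points have an adjusted p under 0.05 over all probe sets. MATN4 is at -2.86 in RA and -1.60 in LE135, and no point is filled between the drugs.

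Among 121 measured genes of the same families and pathways, arranged in 9 lists without the 6 genes, 5 passed in RA, or 4.13%, where 2.74% of all named genes did. In RA 3 rose and 2 fell, with backgrounds of 1.53% and 1.22%. In LE135 4 passed, or 3.31%, where 2.44% did: 1 rose and 3 fell, with backgrounds of 0.868% and 1.57%. Between the drugs none passed in limma, where 0.0463% of named genes did. The median log2 difference of the 121 was 0.04 in RA and 0.02 in LE135, against -0.02 and 0.00 over all named genes.

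None of the 3 measured relatives of ACAN and BCAN passed. NCAN, the neural lectican, stood at 3.62 to 3.80 in all group means, near the lowest array values. The link protein HAPLN1, also low with group means of 4.40 to 4.64, differed by -0.24 in RA and -0.08 in LE135. VCAN, the lectican of limb mesenchyme, had no named probe set here. Of 13 small leucine-rich proteoglycans KERA rose in RA and none passed in LE135, and BGN (biglycan), the closest relative of DCN, differed by 0.25 in RA (adjusted p = 0.623). No gene of the 11 in the matrilin and cartilage list passed in either drug. Of 10 tenascins and matricellular proteins THBS3, a thrombospondin of cartilage and tendon, rose in RA by 0.49 (adjusted p = 0.0474, and 0.0158 to 0.133 over the alternatives). The THBS3 call held in 2 of 12 single omissions and was lost with the sample number as a block. In RA 8 of the 10 differences were positive, with a median of 0.41. The highest was that of FN1 (fibronectin), 1.21 without a call (adjusted p = 0.187 in limma). None of the 10 passed in LE135.

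Of 21 other proteoglycan core proteins NRP1 (neuropilin-1), a semaphorin and VEGF receptor that can carry a glycosaminoglycan chain, fell in both drugs. It stood at 9.22, 9.26, 8.62 and 8.89 in RA and 9.14, 9.28, 8.94 and 9.07 in LE135, against 9.68, 9.90, 9.95 and 9.96 in DMSO. No drug sample reached the DMSO range, and the differences were -0.87 (SE 0.14, adjusted p = 0.00762) and -0.76 (SE 0.14, adjusted p = 0.0158). A second, dimmer NRP1 probe set differed by 0.05 and 0.03. Its group means were low, 4.18 to 4.23, so a change in it could have gone unseen. None of the 20 measured enzymes and transporters of chondroitin sulfate synthesis passed in either drug. CHSY1, which elongates the chondroitin chain, had the highest difference of that list in RA, 0.87 (adjusted p = 0.112). All its RA samples lay above all DMSO samples. For CHSY1 in RA a call was made with weighted arrays, without DMSO 2, and without DMSO 4 and LE135 4 together.

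Of 9 hyaluronan genes HMMR, a hyaluronan-binding protein that also acts on the mitotic spindle, passed in both drugs. Its brighter probe set fell by -0.48 in RA (adjusted p = 0.0413) and -0.64 in LE135 (adjusted p = 0.0119). The dimmer HMMR probe set differed by -0.13 in RA and -0.21 in LE135, overlapped DMSO in both and had no call. HAS2, the main hyaluronan synthase of limb mesenchyme, differed by -0.19 and -0.29, and the hyaluronan receptor CD44 by 0.27 and -0.11, all without a call. Both genes were low for these arrays, with group means of 4.38 to 5.05. Of 23 proteases and inhibitors BMP1, which processes procollagens and small proteoglycans, rose in RA by 0.49 (adjusted p = 0.0462). In LE135 the same probe set differed by 0.41, without overlap and without a call (adjusted p = 0.0963 in limma). The dimmer BMP1 probe sets differed by 0.47 and 0.49 in RA and by 0.40 and 0.35 in LE135, without a call. MMP9, a gelatinase, rose in LE135 by 0.37 (adjusted p = 0.0200). Its group means, 5.33 to 5.71, lay below the array medians of 6.61 to 6.70. The calls of HMMR and BMP1 in RA held in 3 of 12 single omissions each, and that of HMMR in LE135 held in all 12. With only the samples of the compared groups, the LE135 calls of HMMR and MMP9 were lost (adjusted p = 0.0658 and 0.0759 in limma). The call of MMP9 was lost without DMSO 3, LE135 1 or LE135 3 (adjusted p up to 0.0614), and that of NRP1 in LE135 without DMSO 3 (adjusted p = 0.0501).

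**Figure D5:**
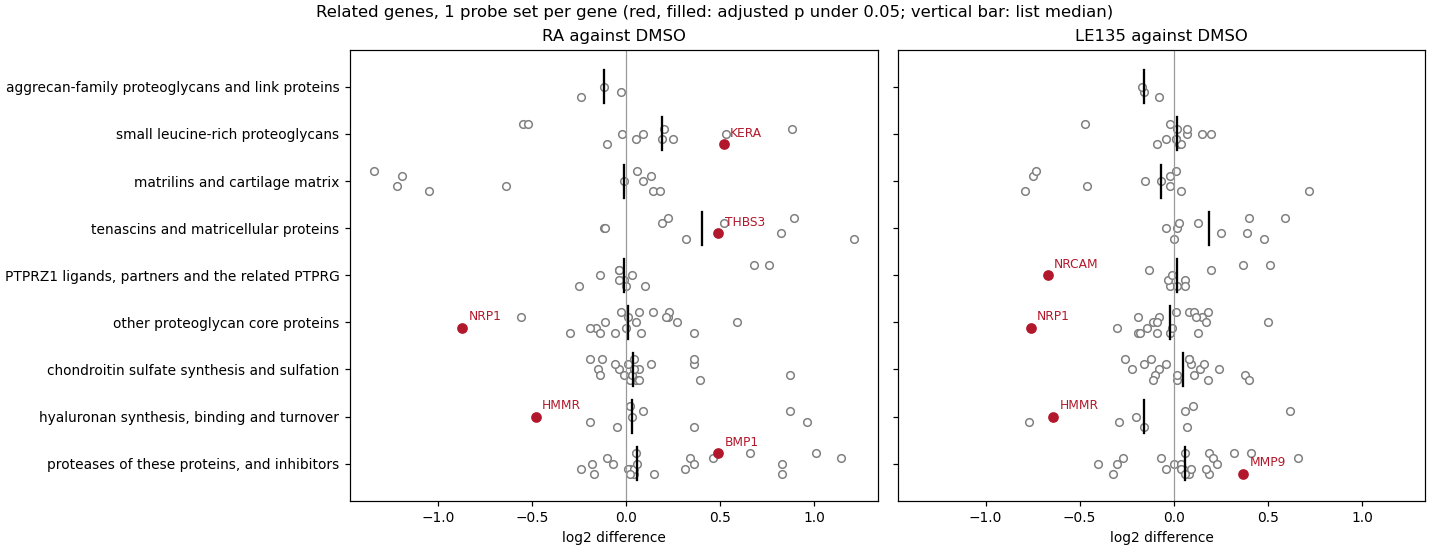
Log2 difference from DMSO (horizontal axes) of each related gene in RA and in LE135, by list; red filled points passed the threshold and black bars are list medians. Most lists centre near 0, and the named genes are the few that passed.

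The genes whose values ran most like those of each member over the 12 samples are given as descriptions, since all points share the same group differences. For ACAN they were BCAN, then FAP, a protease of activated fibroblasts (r = 0.966), and DHRS3, a retinaldehyde reductase (r = 0.961). For BCAN they were ACAN, FAP (r = 0.965) and DHRS3 (r = 0.964). FAP stood at 9.49 to 9.80 in RA, 9.42 to 9.62 in LE135 and 7.49 to 8.37 in DMSO, with DMSO 4 lowest. For PTPRZ1 they were ADIPOR2 (r = 0.985), the desmosomal cadherin DSC2 (r = 0.977) and HTR5A (r = 0.972), and each had its lowest value in LE135 4. For DCN they were ACOX3 (r = 0.950), LMO4 (r = 0.910) and its neighbour KERA (r = 0.900). For MATN4 they were P2RY4 (r = 0.947), STRADA (r = 0.946) and STX11 (r = 0.932), and for TNN they were FLRT3 (r = 0.935), PPP1R13L (r = 0.920) and POP7 (r = 0.882).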

How the data were processed

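The authors deposited log2 expression values for 12 Affymetrix arrays, 1 array for each pooled sample. RMA made them, per the submitters' processing notes; its version is not given in the sources used here. Of 20080 probe sets, 45 controls were left out. Symbols were taken from GEO's annotation of this array: 10951 probe sets had 1 symbol, 9084 had none, and the probe set with the highest mean stood for a list gene. No detection calls were used.

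limma 3.58.1 under R 4.3.3 fitted one mean for each treatment over all 12 samples, with eBayes, and p-values were Benjamini-Hochberg adjusted over all 20035 probe sets (threshold 0.05); the script was tested on simulated data. The study's design text names an ANOVA, which was run as an alternative. Alternatives are given in the closing section. For arrays the number of samples, 4 per group, limits the precision.

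The 6 genes and the lists were chosen with earlier results of these data known. All probe sets of the 6 were named, with list genes that passed, 17 fixed relatives (VCAN and TNR were not measured) and 3 genes of most similar values per member. RHBG, HAPLN3, EPYC, COL9A1, CHSY1, FAM83C, CSRP2 and FN1 were named after their values were seen.

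Samples are numbered 1 to 4 in each treatment. Deviations from the group means correlated at 0.126 to 0.607 between same-numbered samples of LE135 and DMSO, all 4 above the limit of 0.1 used for pairing, but at 0.04 to 0.179 for RA and DMSO and at -0.175 to 0.261 for RA and LE135. Differently numbered LE135 and DMSO samples among numbers 1 to 3 also correlated, at 0.118 to 0.393. Sample 4 of either group correlated at -0.504 to -0.294 with samples 1 to 3 of the other. These values set sample 4 apart from the rest and do not show pairing by number among samples 1 to 3. The labels do not give a pairing.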

Additional observations from a re-analysis of the deposited data

Results flagged for a closer look

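Of 30 groups of 4 examined (10 probe sets in 3 treatments), 3 held a sample far from the other 3; chance flags about 1 in 20. The brighter ACAN probe set was at 7.76 in DMSO 4, against 8.98 to 9.08 in the other DMSO samples. The dimmer TNN probe set was at 4.95 in DMSO 4, against 4.32 to 4.33. The brighter TNN probe set was at 4.57 in DMSO 1, against 5.45 to 5.62.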

How the results depend on the processing

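The brighter ACAN and BCAN probe sets passed against DMSO in both drugs, and MATN4 in RA. These calls held under each of the 12 omissions of a single sample and under 8 other settings. The mean of a gene's probe sets, used below for related genes, was not among these 8. The genes were chosen from these same contrasts, so the calls are descriptions and nothing is read from their persistence. In RA against DMSO the count of member probe sets past the threshold was 5, and 3 with only the 8 compared samples, 3 with the sample number as a replicate block and 3 with a plain ANOVA, and 3 to 6 when single samples were left out. The related genes past it numbered 5 there, and 1 with the 8 samples, 2 with the replicate block, 1 with the plain ANOVA, 2 with the mean of a gene's probe sets, 13 with array weights, 11 without DMSO 4 and LE135 4, and 1 to 6 over the omissions. In LE135 against DMSO the members numbered 3, and 5 with array weights and 2 to 4 over the omissions, and PTPRZ1 was also lost with the 8 samples and with the plain ANOVA; the related genes numbered 4, and 2 with the 8 samples, 2 with the mean of probe sets and 2 to 6 over the omissions. The replicate block changed no other member count. In RA against LE135 the members numbered 0, 1 with array weights (MATN4) and 0 to 0 over the omissions; the related genes numbered 0, and 1 with array weights, 1 without DMSO 4 and LE135 4 (NRCAM in both, adjusted p = 0.016 and 0.0397 in limma) and 0 to 1 over the omissions. Differences near 0 between the drugs changed sign: ACAN brighter ran from -0.04 to 0.19 over the omissions, ACAN dimmer from -0.11 to 0.45, with -0.10 under array weights and 0.00 without DMSO 4 and LE135 4, and BCAN dimmer from -0.05 to 0.07. The causes of these changes were not tested. Signal near the lowest array values limits NCAN, MATN1, MATN3, NRCAM, the dimmer BCAN and PTPRZ1 probe sets and both TNN probe sets. It also limits PTN, HAPLN1, HAS2, CD44 and the dimmer NRP1 probe set, in which a change could have gone unseen.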
